A study of Mus musculus with 8 samples.

Results

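The C/EBP family genes are Cebpa, Cebpb, Cebpd, Cebpe and Cebpg, 5 of the 21938 protein-coding genes in the GENCODE annotation of the mouse genome build GRCm38 (mm10). They were taken by name. The peaks described for each gene are all deposited peaks with at least 1 base in its locus, meaning the gene body or the 50 kb on either side of any of its annotated transcription start sites (TSS). Chromatin came from nuclei of skeletal muscle of wild-type (WT) C57/Bl6J mice, aged 10 to 12 weeks, and was immunoprecipitated and sequenced (ChIP-seq). The antibodies were against the glucocorticoid receptor (GR), H3K27ac, RNA polymerase II (Pol2), H3K4me1, CTCF (labelled Ctcf) and H3K4me3. There was 1 library per antibody, with Input1 for GR, H3K27ac, Pol2 and H3K4me1 and Input2 for CTCF and H3K4me3. The labels name no hormone treatment, sex or muscle, and do not say how many animals gave nuclei. With 1 library per antibody there is no replicate error and no test between samples: every value below is a description of these 6 peak lists, and the library depths are unknown.

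C/EBP proteins are transcription factors of the basic leucine zipper (bZIP) class, which bind DNA as dimers with each other or with related bZIP proteins. C/EBPα is known for driving adipocyte, hepatocyte and granulocyte differentiation, C/EBPβ and C/EBPδ for the acute phase response and the early steps of adipogenesis, and C/EBPε for late granulocyte maturation. C/EBPγ lacks a transactivation domain and acts as a dimer partner. Cebpb and Cebpd are known glucocorticoid-induced genes in several tissues, and C/EBPβ and C/EBPδ have been linked to muscle wasting. GR itself is a ligand-activated receptor that binds a palindromic glucocorticoid response element (GRE) or reaches DNA with other factors.

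The 4 exact GREs found in GR peaks of the C/EBP loci are shown first, because they are the places where GR peaks in these loci held the receptor's own motif. Each is named for the locus it lies in, which does not make that gene its target. The nearest protein-coding start to the peak was Tmem189 for the Cebpb run, Slc7a8 for Cebpe, Pepd for Cebpg and Cebpd for Cebpd. Each run is the GRCm38 plus strand, 5′ to 3′, and the capitals mark the GRE, searched on both strands as GNACA and TGTNC separated by 3 bases. The Cebpb run is chr2:167672211-167672363, in an intron of Tmem189, with its GRE 16628 bases upstream of the Cebpb start. The Cebpd run is chr16:15889826-15889854, in the long annotated 3′ untranslated region (UTR) of Cebpd and an intron of Spidr, 2554 bases downstream of the start. The Cebpe run is chr14:54748070-54748222, in an intron of Slc7a8, 35972 bases upstream of the start. The Cebpg run is chr7:35021523-35021675, in an intron of Pepd, 34974 bases downstream of the start.
Cebpb GRE: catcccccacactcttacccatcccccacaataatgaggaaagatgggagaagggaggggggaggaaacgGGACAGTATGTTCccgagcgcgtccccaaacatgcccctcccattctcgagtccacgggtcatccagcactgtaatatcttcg
Cebpd GRE: gggttcctGGACATTTTGTTCccaacaac
Cebpe GRE: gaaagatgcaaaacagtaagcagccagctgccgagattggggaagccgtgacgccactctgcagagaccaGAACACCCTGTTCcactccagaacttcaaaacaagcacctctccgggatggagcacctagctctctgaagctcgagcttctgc
Cebpg GRE: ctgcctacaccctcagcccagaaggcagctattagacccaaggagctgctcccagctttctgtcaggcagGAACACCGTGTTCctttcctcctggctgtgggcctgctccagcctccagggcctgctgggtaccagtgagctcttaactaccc

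The 250 bases upstream of the start are shown for Cebpa and Cebpb, because these were the 2 members with a CTCF peak at the start, and for Cebpg for comparison. The sequences are from RefSeq (GRCm38.p6), on the strand of the gene, and 3 of the 5 members matched an entry. Cebpd and Cebpe had no entry. The capitals mark AGGGGGC, a core of the CTCF motif that was chosen after the values were seen and searched on both strands. It stood 51 to 45 bases before the start of Cebpa, and at 241 to 235 and 194 to 188 bases before the start of Cebpb, where each copy shares bases with a GC box. All 3 copies lay inside the CTCF peaks at these starts. The Cebpa stretch is chr7:35119043-35119292 on the plus strand, the Cebpb stretch chr2:167688665-167688914 on the plus strand, and the Cebpg stretch chr7:35056567-35056816 on the minus strand.
Cebpa promoter: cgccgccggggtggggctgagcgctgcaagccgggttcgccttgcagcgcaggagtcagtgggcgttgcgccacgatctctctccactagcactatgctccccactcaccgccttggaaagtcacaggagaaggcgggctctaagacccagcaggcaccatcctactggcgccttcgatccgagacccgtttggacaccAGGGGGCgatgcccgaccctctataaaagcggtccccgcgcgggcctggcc
Cebpb promoter: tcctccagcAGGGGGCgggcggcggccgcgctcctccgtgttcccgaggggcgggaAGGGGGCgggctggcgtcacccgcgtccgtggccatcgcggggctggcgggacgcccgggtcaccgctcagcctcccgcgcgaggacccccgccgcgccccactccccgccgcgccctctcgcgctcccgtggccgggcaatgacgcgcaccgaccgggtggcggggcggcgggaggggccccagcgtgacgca
Cebpg promoter: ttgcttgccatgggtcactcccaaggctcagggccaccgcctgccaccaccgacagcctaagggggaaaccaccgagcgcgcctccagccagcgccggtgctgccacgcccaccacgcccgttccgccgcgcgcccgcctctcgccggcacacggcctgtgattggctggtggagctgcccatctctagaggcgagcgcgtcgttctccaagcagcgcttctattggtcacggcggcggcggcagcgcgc

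All 3 promoters were rich in CpG. The Cebpb stretch held 41 CpG dinucleotides, a number reached by 1.09% of the 32851 promoters in the table, and 81.6% of its bases were G or C. The Cebpg stretch held 29 CpG (6.78% of promoters had as many) and the Cebpa stretch 22 (14.8%), against a median of 6 over all promoters. Cebpb held 5 GC boxes, the GGGCGG element bound by Sp factors, and Cebpa and Cebpg held none. A GC box occurred in 32.7% of all promoters and AGGGGGC in 9.43%. Neither a GRE nor a C/EBP site occurred in these 3 stretches, which says only that those letters were not in these windows.

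At their start sites the 5 genes fell into 4 that carried every active mark and 1 that carried none. Cebpa, Cebpb, Cebpd and Cebpg each had a GR, a Pol2, an H3K27ac, an H3K4me1 and an H3K4me3 peak within 1 kb of an annotated TSS, and Cebpe had none of the 6 kinds of peak there. Among all protein-coding genes, 43.4% had GR at a TSS by this rule, 47.1% Pol2, 52.4% H3K27ac, 65.8% H3K4me1 and 61.5% H3K4me3, and 40.0% had GR, Pol2, H3K27ac and H3K4me3 together. CTCF stood at the start of Cebpa and Cebpb, against 7.54% of all genes. In nuclei from whole muscle, a mark on fewer nuclei and a weaker mark on all of them cannot be told apart.

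The GR peaks at the 4 starts were of like width. They measured 575 bases at Cebpb, 551 at Cebpd, 508 at Cebpg and 451 at Cebpa, each wider than the median of 278 bases over the 8701 genes with GR within 1 kb of the 5′ end. Of those genes, 6.93% had a start peak as wide as that of Cebpb and 16.5% as wide as that of Cebpa. The Pol2 peaks at the same starts ranged far more. They measured 2244 bases at Cebpd, 1441 at Cebpb, 670 at Cebpg and 218 at Cebpa, beside a median of 267 bases at marked starts. Only 0.418% of genes with Pol2 at the 5′ end had a peak as wide as that of Cebpd, and 0.951% as wide as that of Cebpb. The share was 5.75% for the width at Cebpg and 63.7% for that at Cebpa.

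The promoter mark H3K4me3 covered each of the 4 starts. At Cebpb the H3K4me3 peak was 4097 bases wide, which 0.561% of genes with that mark at the 5′ end reached, and its deposited fold over the control was 38. At Cebpa it was 3174 bases (2.02% of marked genes) with a fold of 34.2, and at Cebpd 2827 bases (3.26%) with a fold of 41.9. Cebpg had the narrowest of the 4, at 1757 bases, with the highest fold, 59.5, a value reached by 2.45% of the H3K4me3 list. Folds and summits are the authors' own values and were given for H3K4me3 and CTCF only. H3K27ac, the mark of active promoters and enhancers, was widest at Cebpb, with 4371 bases, and Cebpd, with 3974 bases. It was 1766 bases at Cebpg, and at Cebpa it was split into peaks of 1216 and 877 bases on either side of the start.

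**Figure D1:**
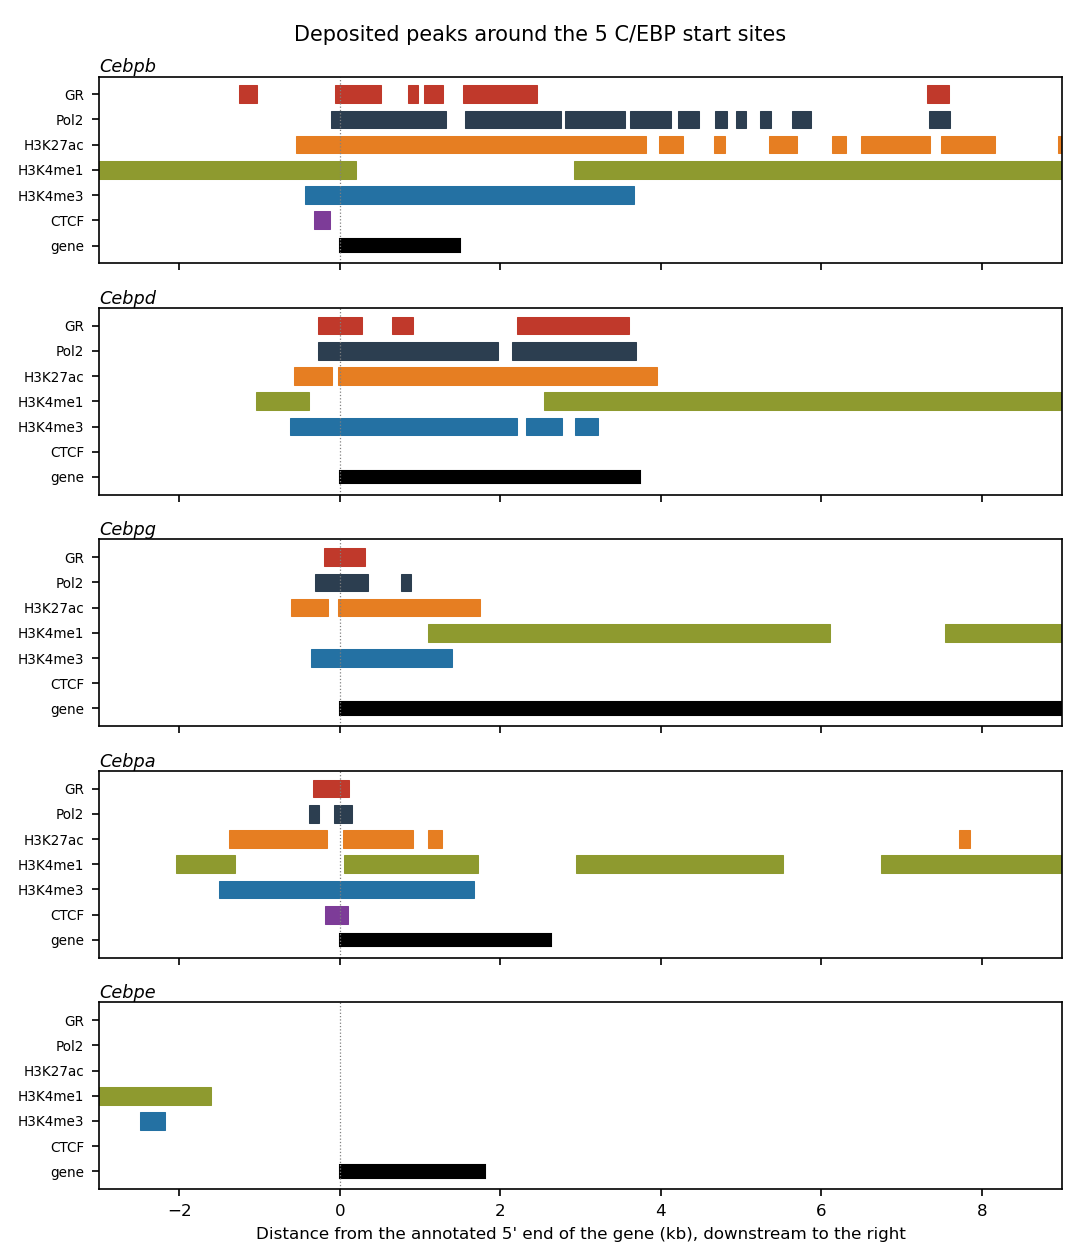
Deposited peaks from 3 kb upstream to 9 kb downstream of the 5′ end of each gene, drawn as bars to scale, with 1 row per antibody and the gene body in black. The gene bodies of Cebpb and Cebpd are nearly filled by Pol2 and each has a wide GR peak downstream of the start. Cebpa and Cebpg have Pol2 at the start, with widest peaks of 218 and 670 bases, and most of their bodies have none. Cebpe has no GR, Pol2 or H3K27ac bar in this range.

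Pol2 covered nearly the whole body of Cebpb and Cebpd. Peaks of Pol2 spanned 93.9% of the Cebpd gene body and 88.4% of the Cebpb body, values that 0.1% and 0.128% of protein-coding genes reached. They spanned 5.77% of Cebpa (reached by 5.37% of genes) and 4.77% of Cebpg (6.54%), and 0% of Cebpe. Over all genes the median was 0%, since 53.6% of genes had no Pol2 peak in the body. Short genes are covered more easily, these shares are over genes of all lengths, and the part of length was not tested. Cebpb is 1504 bases long, in a single exon, Cebpe 1815, Cebpa 2636, Cebpd 3746 and Cebpg 10152 bases. H3K27ac covered 100% of both the Cebpb and the Cebpd body, against 40.1% of Cebpa, 17.2% of Cebpg and 0% of Cebpe.

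Past the annotated end of Cebpb, Pol2 peaks went on. In the 10 kb after the gene there were 9 Pol2 peaks with 3659 bases in all, the last ending 6105 bases past the end. All but the nearest had their midpoint in A530013C23Rik, a long intergenic non-coding RNA gene downstream of Cebpb. None of the other 4 genes had Pol2 in the 10 kb past its GENCODE end. Past the shorter RefSeq end of Cebpd, however, there was 1 Pol2 peak, with 1430 bases beyond that end. ChIP-seq has no strand, so Pol2 on Cebpb, on A530013C23Rik and on a Tmem189 transcript that starts inside Cebpb on the other strand cannot be told apart.

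Cebpb and Cebpd each had a GR peak downstream of the start that was wider than the GR peak at the start. At Cebpb it was chr2:167690449-167691368, 920 bases wide, and began 31 bases past the GENCODE end of the gene (17 bases past the RefSeq end). At Cebpd it was chr16:15889500-15890892, 1393 bases wide, inside the long GENCODE 3′ UTR, with 1347 of its bases past the shorter RefSeq end. In the GR list of 23188 peaks, 85 were at least as wide as the Cebpb peak (0.367%) and 12 at least as wide as the Cebpd peak (0.0518%). Pol2 peaks covered 97.5% of the Cebpb peak and 100% of the Cebpd peak, and H3K27ac covered 100% of both. Both wide GR peaks thus lay where Pol2 and H3K27ac were also called, and the part of these in their width was not tested.

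A search for the same layout was made over all genes, by a rule chosen after these values were seen. Of the 8701 genes with GR within 1 kb of the 5′ end, 210 (2.41%) had a wider GR peak 1 to 5 kb downstream. Cebpb and Cebpd were among them, and Cebpa and Cebpg had no GR peak in that range. The Cebpd peak also held an exact GRE, GGACATTTTGTTC, the one of the 4 in the promoter class. It lay 356 bases from the midpoint of its peak, outside the central 200 bases. The Cebpb peak held the C/EBP site TTCTGCAA and TGTTCT, the 6-base arm of a GRE, and no GRE.

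**Figure D2:**
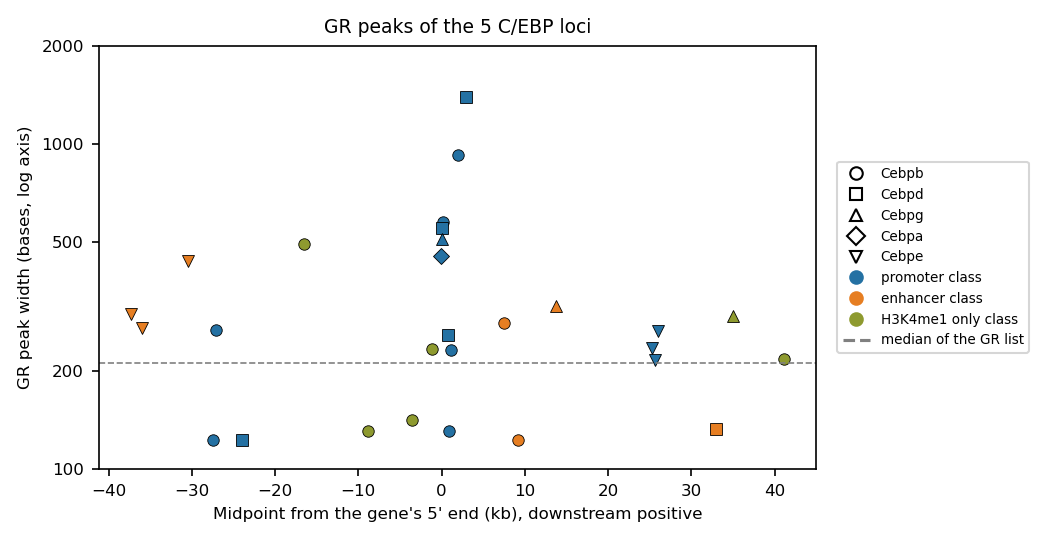
Width in bases (log axis) of each of the 28 GR peaks against the distance in kb of its midpoint from the gene's 5′ end, with symbols for genes and colours for mark classes, and the dashed line at the GR list's median of 212 bases. The 2 widest peaks, 1393 bases at Cebpd and 920 bases at Cebpb, lie just downstream of the start, and the 4 start peaks follow at 451 to 575 bases together with a Cebpb peak of 491 bases centred 16514 bases upstream.

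Over the whole loci, Cebpb had the most peaks of every kind except H3K4me3, counted without regard to which gene start was nearest. The Cebpb locus held 13 GR peaks, a number reached by 1.59% of protein-coding genes. Cebpe followed with 6 (15.7% of genes), Cebpd with 5 (21.6%), Cebpg with 3 (40.2%) and Cebpa with 1 (68.3%), beside a median of 2. Among genes with H3K4me3 within 1 kb of a TSS, the shares were higher. They were 2.31% for the number at Cebpb, 22.4% for Cebpe, 30.5% for Cebpd, 55.5% for Cebpg and 88.9% for Cebpa. Within 25 kb of a TSS, where 59.8% of genes had at least 1 GR peak, Cebpb had 10 (0.957% of genes had as many), Cebpd 4, Cebpg 2 and Cebpa 1. Cebpe had none, so its 6 peaks all lay beyond 25 kb.

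Pol2 and the enhancer mark gave partly different orders. Cebpb had 13 Pol2 peaks, reached by 3.01% of genes, then Cebpe 5, Cebpd 3, and Cebpa and Cebpg 2 each, beside a median of 2. Part of the Cebpb number came from peaks that lay close together. With peaks within 200 bases joined, Cebpb had 7 Pol2 peaks, Cebpe 4, Cebpd and Cebpg 2 each, and Cebpa 1. H3K27ac peaks numbered 12 at Cebpb, 10 at Cebpe, 7 at Cebpd and 6 each at Cebpa and Cebpg, beside a median of 3. For H3K4me1 the order was Cebpb 18 (4.24% of genes), Cebpa 14 (11.6%), Cebpe 10, Cebpg 6 and Cebpd 5, beside a median of 6. In these loci Cebpa thus had the fewest GR peaks and the second most H3K4me1 peaks by number, though H3K4me1 covered less of its locus than at Cebpb, Cebpe and Cebpg. The place of Cebpa for GR held for this window only. With loci of 25 kb Cebpe had the fewest GR peaks (0), and with loci of 100 kb Cebpg had the fewest (4, against 6 at Cebpa). With the main window of 50 kb the loci held 4 H3K4me3 peaks at Cebpd, 2 at Cebpb, 2 at Cebpe and 1 each at Cebpa and Cebpg. The lead of Cebpd depended on these settings. With peaks within 200 bases joined, Cebpd, Cebpb and Cebpe had 2 each, and with loci of 100 kb Cebpe had 7, Cebpb 6 and Cebpd 4. CTCF peaks in the main window numbered 3 at Cebpb, which 7.86% of genes reached, and 1 at Cebpa. The 5 loci were 100 to 105 kb long, against a median of 104 kb over all genes.

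**Figure D3:**
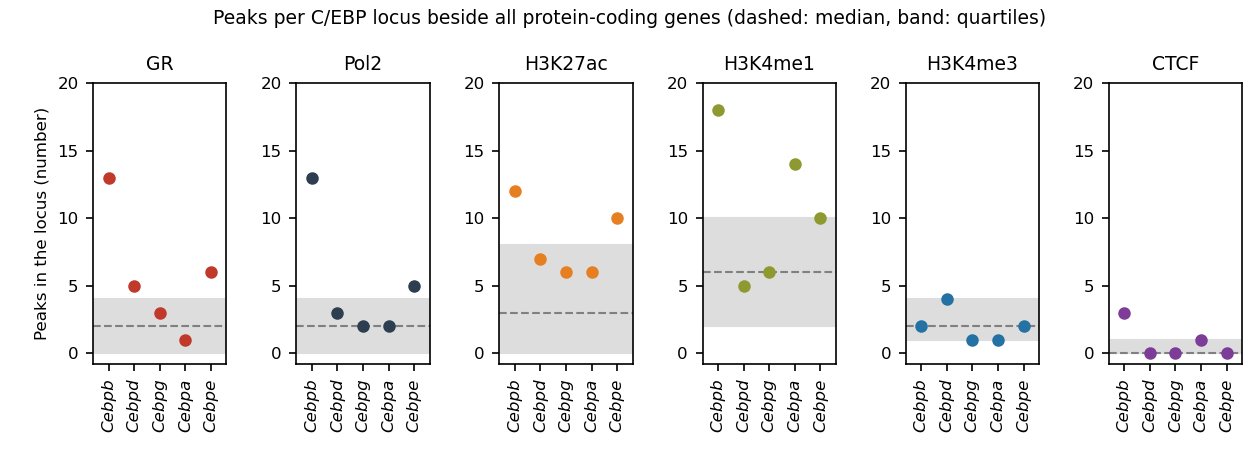
Number of deposited peaks in each C/EBP locus, 1 panel per antibody and 1 point per gene, with the median over all 21938 protein-coding genes as a dashed line and the quartiles as a grey band. Cebpb is the highest point for GR (13), Pol2 (13), H3K27ac (12), H3K4me1 (18) and CTCF (3), and Cebpd for H3K4me3 (4).

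The 13 GR peaks of the Cebpb locus were spread from 27398 bases upstream to 41080 bases downstream of the start. Upstream, 2 lay at starts of Tmem189 and Gm20431, and 4 lay in Tmem189 introns at 16514, 8804, 3593 and 1144 bases from the Cebpb start. Those 4 overlapped H3K4me1 without H3K27ac or H3K4me3. The peak at 16514 bases is 491 bases wide and holds the GRE printed above, beside the single arms AGAACA and TGTTCT and 3 copies of CAGCTG, the E-box bound by muscle basic helix-loop-helix factors. It also overlapped a Pol2 peak of 144 bases. Downstream of the wide peak, GR peaks of 280 and 123 bases at 7456 and 9149 bases carried H3K27ac and H3K4me1. They lay in an H3K4me1 peak of 11116 bases, a width that 2.43% of that list reached, and the farthest, at 41080 bases, lay in another of 6693 bases.

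CTCF, which organises chromatin loops and boundaries, stood at 3 places upstream of Cebpb and at none downstream. Its summits lay 8770, 3596 and 168 bases before the start, with deposited folds of 7.84, 14 and 6.16. The middle one was the strongest, with a fold reached by 8.47% of the CTCF list. The peaks at 8770 and 3596 bases coincided with GR peaks of 131 and 142 bases, and these GR peaks lay wholly inside them. The peak at the start ended 124 bases before it and met no GR peak.

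Assigning peaks to the nearest start would take most of the Cebpb peaks away from it. Tmem189 has an annotated start 907 bases inside Cebpb on the opposite strand, and 8 of the 13 GR peaks and 12 of the 13 Pol2 peaks had a Tmem189 start as the nearest. By that rule Cebpb kept 4 GR, 3 CTCF and 2 H3K4me1 peaks, and no Pol2, H3K27ac or H3K4me3 peak, so that it no longer had the most peaks of those 3 kinds or of H3K4me1, and shared the GR count of 4 with Cebpd. The 4 GR peaks include the one across the Cebpb start but not the wide one past its end. With loci of 25 kb, Cebpb and Cebpa had 8 H3K4me1 peaks each.

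The Cebpd locus held its marks in a compact block. GR peaks of 551, 259 and 1393 bases followed each other from 272 bases before to about the end of the gene. Pol2 peaks of 2244 and 1542 bases lay under them, and an H3K27ac peak of 3974 bases spanned the whole gene. The H3K4me3 peak of 2827 bases was followed by peaks of 443 and 285 bases with deposited folds of 8.58 and 4.19, both under the wide GR peak. An H3K4me1 peak of 6867 bases began in the last part of the gene. The other 2 GR peaks were one of 123 bases at the start of Mzt2, 23926 bases upstream, and one of 133 bases in an intron of Spidr, 33022 bases downstream. No CTCF peak lay in the locus, and the nearest was 1007938 bases away.

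Cebpg and Cebpa lie on chromosome 7 with their starts 62720 bases apart and on opposite strands, pointing away from each other. Their loci shared 37.3 kb, which held 1 H3K27ac and 2 H3K4me1 peaks and no GR, Pol2, H3K4me3 or CTCF peak. GR at Cebpg comprised the start peak of 508 bases, 100% of it under Pol2, and peaks of 317 and 295 bases at 13695 and 35018 bases downstream. Both of the latter lay in introns of Pepd, which encodes a peptidase, and the first was 312 bases from a Pepd start. Cebpg showed H3K4me1 at an internal annotated start, not across its 5′ end. At 15160 bases its widest H3K4me1 peak was reached by 1.35% of the list and ran from Pepd into the last part of Cebpg.

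Cebpa had its only GR peak at the start, where 5 other antibodies also gave peaks. That GR peak, chr7:35118954-35119404, lay wholly under H3K4me3, with 56.8% under Pol2 and 61.6% under CTCF. The CTCF peak of 278 bases lay wholly inside it, with its summit 63 bases before the start and a fold of 8.77. The 14 H3K4me1 peaks of the locus were short, with a median of 996 bases, beside 1367 bases over the whole list, and 10 of them lay downstream of the start. They covered 22.2% of the locus, against 54.4% at Cebpb, 42.3% at Cebpe, 29.7% at Cebpg and 11.7% at Cebpd. None of the 14 apart from the one at the start met a GR peak.

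Cebpe differed from the other members in having no peak of any kind in the gene body. The nearest GR peak was 25113 bases away, the nearest Pol2 peak 25047, the nearest H3K27ac peak 8719, the nearest H3K4me3 peak 2183 and the nearest H3K4me1 peak 1604. That H3K4me3 peak was 311 bases wide, a width that 83.3% of the list reached, with a fold of 8.78. Of the 6 GR peaks in the locus, 3 were at the shared start region of Acin1 and 1700123O20Rik, between 25231 and 25965 bases downstream. The other 3 lay 30419, 36001 and 37265 bases upstream in introns of Slc7a8, which encodes an amino acid transporter. All 3 carried H3K27ac and sat in 1 H3K4me1 peak of 25567 bases, a width reached by 0.426% of the list. The 6 GR peaks counted for Cebpe were thus at the starts or in the introns of other genes.

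**Figure D4:**
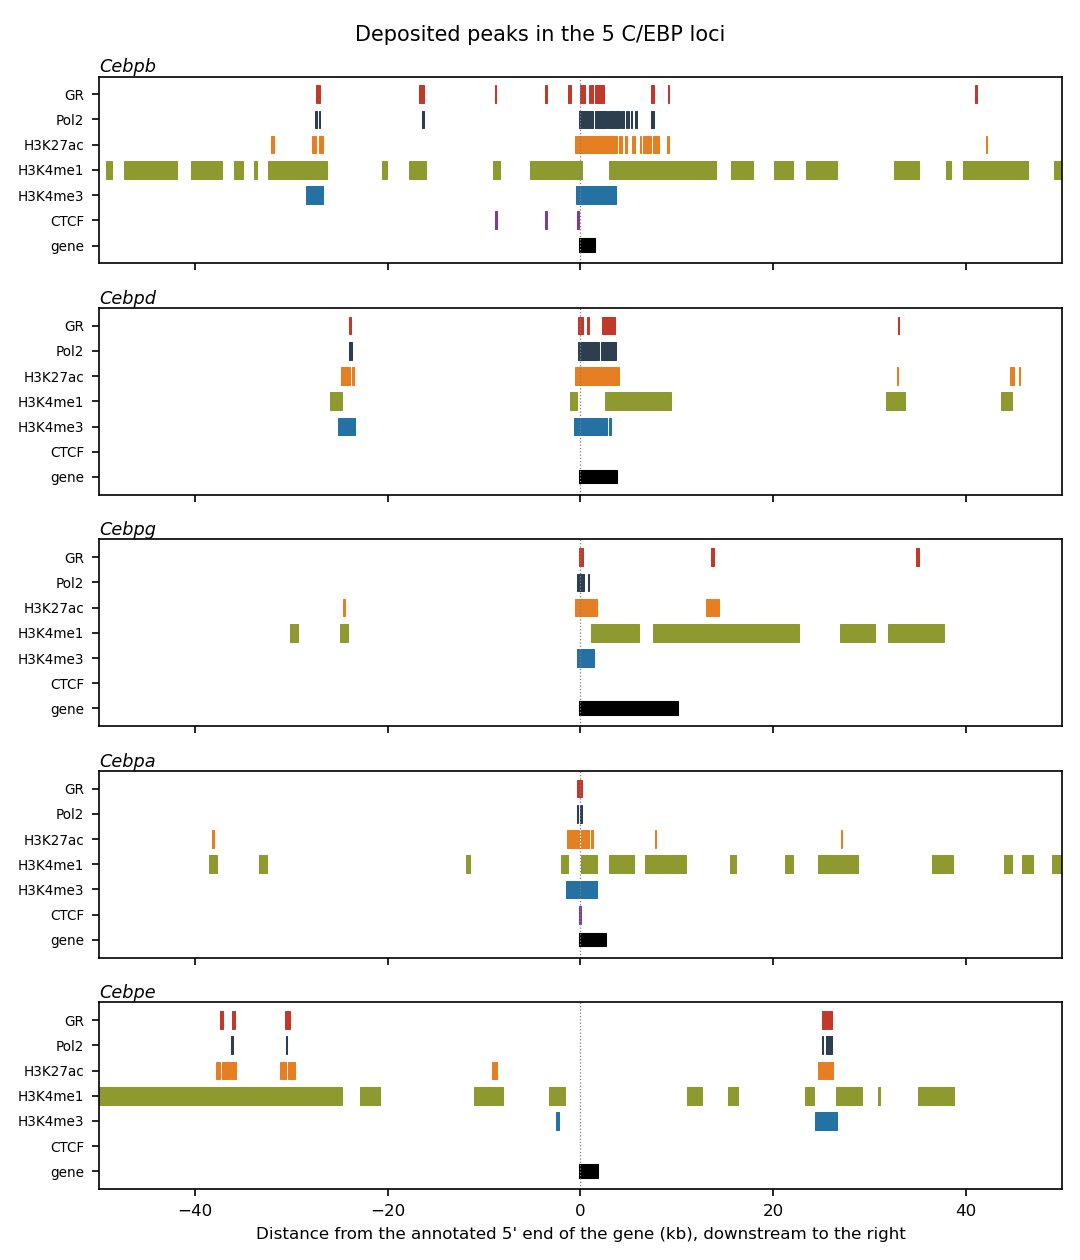
Deposited peaks over the 5 loci, drawn as bars to scale against the distance in kb from the gene's 5′ end, with downstream to the right and 1 row per antibody. Cebpb has GR bars across the locus, Cebpd, Cebpg and Cebpa have GR bars at the start, and all 6 GR peaks of Cebpe lie more than 25 kb from its start.

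By the histone marks they overlapped, 15 of the 28 GR peaks were in the promoter class (H3K4me3), beside 53.2% of all GR peaks. The enhancer class (H3K4me1 and H3K27ac without H3K4me3) held 7, beside 19.3%, and the class with H3K4me1 only held 6, beside 19.9%. No GR peak of the loci had H3K27ac only (0.811% of all) or none of the 3 marks (6.78% of all). Exact Clopper-Pearson 95% intervals over all GR peaks, which cover counting error only, were 52.6% to 53.9% for the promoter class and 18.8% to 19.8% for the enhancer class. Of the 6 peaks with H3K4me1 only, 5 were at Cebpb and 1 at Cebpg. The enhancer class held 3 peaks of Cebpe, 2 of Cebpb and 1 each of Cebpd and Cebpg. Pol2 overlapped 19 of the 28 GR peaks, beside 51.3% of all, and CTCF overlapped 3, beside 7.09%. The counts over the 28 peaks are small, and peaks of a locus are not independent of each other.

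Motifs were searched on both strands in 200 bases at the midpoint of each GR peak, without a mismatch. The GRE was found in 2 of the 28 peaks (Cebpe and Cebpg), beside 5.52% of all GR peaks, and its single arm AGAACA in 4, beside 17.1%. The C/EBP site TTGCNNAA was found in none, beside 7.53%, so these windows gave no match to the family's own site. The cAMP response element TGACGTCA (1.38% of all GR peaks), the STAT site TTCCNGGAA (1.01%) and the NF1 site, TTGGC and GCCAA separated by 5 bases (0.0302%), were also found in none. The muscle E-box CAGCTG was found in 8, beside 18.2%, and the GC box GGGCGG in 8, beside 36.0%. The windows of 7 peaks narrower than 200 bases reached beyond the peak, and 2 of the 8 E-box matches lay only there, which leaves 6 peaks with an E-box in the part of the window that the peak covers. A single arm can lie inside a GRE, as in the Cebpe peak.

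Over whole peaks, the GRE was found in 4 of the 28, beside 5.99% of all GR peaks, and the C/EBP site in 2, beside 8.71%. With 1 mismatch in the 200 bases, the GRE was found in 5, beside 20.5%, and the C/EBP site in 17, or about the background of 64.6%. None of the 4 start peaks held an exact GRE over its whole length. The exact C/EBP sites were TTGAGCAA, in the Cebpb peak 1144 bases upstream of its start, and TTCTGCAA, in the wide peak past its end. Over all GR peaks, a GRE occurred in 1.01% of the 12338 promoter peaks and in 11.6% of the 10850 others. Among the C/EBP loci it occurred in 1 of 15 promoter peaks and in 3 of 13 others. AGGGGGC was found in 22.7% of the 6526 CTCF peaks, in 200 bases at the summit.

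Genes that work with the C/EBP proteins were counted by GR peaks within 25 kb of a TSS and by Pol2 within 1 kb of a TSS. Of 12 bZIP partners and relatives, 10 had GR and 10 had Pol2. Tef had 15 GR peaks, and Dbp and Nfil3 11 each: Tef and Dbp are clock-controlled activators of the PAR bZIP group, and Nfil3 is a repressor that binds the same sites. Batf and Batf3, immune-cell bZIP factors, had none. Ddit3, the stress-induced C/EBP partner known as CHOP, had 5, and Atf4 had 5. The median of the list was 5, beside a median of 1 over all genes.

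Of 12 regulators of C/EBP genes or proteins, all 12 had a GR peak within 25 kb and 10 had Pol2 at a start. Smad3, a TGF-β signal transducer, had 14, Trib1, an adaptor that directs C/EBPα to degradation, had 8, and Stat3, which conveys cytokine signals, had 6. Nr3c1, the gene of GR itself, had 4. The median was 2.5.

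The target lists ranged from all genes to no gene with Pol2 at a start. All 3 muscle wasting targets had GR within 25 kb and Pol2 at the start: there were 16 GR peaks near Trim63 (the E3 ligase MuRF1), 4 near Fbxo32 (the E3 ligase atrogin-1) and 1 near Mstn (the growth inhibitor myostatin). Of 8 adipocyte targets, 6 had GR and 4 had Pol2, with 5 GR peaks at Slc2a4, the insulin-responsive glucose transporter, 2 each at Lep and Lpl, and none at Fabp4 and Pparg. Of 8 granulocyte targets, 6 had GR but none had Pol2 or H3K27ac at a start, and 1 had H3K4me3. Lcn2, which encodes an iron-siderophore binding protein, had 9 GR peaks, Csf3r had 2, and Ltf and Mpo had none. Of 8 acute phase and liver targets, 5 had GR, none more than the 2 of Orm1, and none had Pol2, H3K27ac or H3K4me3 at a start, with no GR peak near G6pc, Il6 and Pck1. Within 5 kb of a TSS, GR was found at 2 muscle wasting, 2 adipocyte, 1 granulocyte and 2 acute phase and liver targets. It was found there at 10 bZIP partners and relatives and at 10 regulators, beside 47.3% of all genes. The counts within 25 kb stand beside 59.8% of all genes with GR within 25 kb, and those of Pol2 beside 47.1%.

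**Figure D5:**
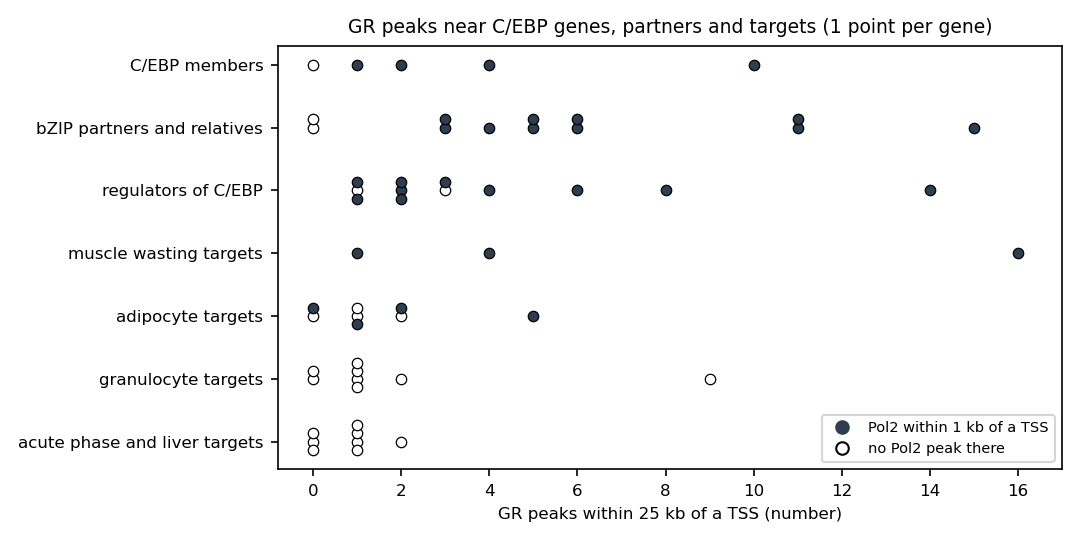
Number of GR peaks within 25 kb of a TSS for each C/EBP gene and each gene of 6 partner, regulator and target lists, 1 point per gene, filled where Pol2 lies within 1 kb of a TSS. Filled points reach 16 (Trim63) and 15 (Tef), and all points of the granulocyte and of the acute phase and liver lists are open.

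The labelled tissue was checked against marker genes. All 6 muscle fibre markers (Acta1, Ckm, Myh4, Tnnt3, Ttn, Mb) had GR, Pol2, H3K27ac and H3K4me3 at a start, with 5 to 21 GR peaks within 25 kb. All 4 fibro-adipogenic markers (Pdgfra, Col1a1, Dcn, Col3a1) also had these 4 kinds of peak. Among all protein-coding genes, 40.0% had these 4 kinds together within 1 kb of a TSS. For single kinds the shares were 47.1% for Pol2, 52.4% for H3K27ac and 61.5% for H3K4me3. Pol2 stood at the start of 1 of 4 adipocyte markers (Fabp4), 1 of 6 myeloid markers (Cd68), 1 of 4 endothelial markers (Pecam1), 0 of 3 satellite cell markers and 0 of 3 liver markers. H3K27ac was at the start of 1 endothelial marker (Cdh5) and of none of the adipocyte, myeloid, satellite cell and liver markers. H3K4me3 was at the start of all 4 endothelial markers (Pecam1, Cdh5, Kdr, Tie1). It was also at the start of Fabp4, of the myeloid marker Csf1r and of the satellite cell marker Pax7, and of no liver marker. Within 25 kb, where 59.8% of all genes had GR, GR was found at 3 of 4 adipocyte and 2 of 6 myeloid markers. It was also found there at 1 of 4 endothelial, 2 of 3 satellite cell and 1 of 3 liver markers. The most among these was 4 GR peaks at the myeloid marker Cd68, beside a median of 0 over the myeloid list and 1 over all genes. Peaks at the other C/EBP genes can come from muscle fibres or from other nuclei of the muscle, and the part of each was not tested.

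Other genes had peak numbers like those of the members, taken as the sum over the 6 lists of the absolute difference in peak number. Genes within 200 kb of a member were left out of this search. For Cebpg, Stbd1 had the same number in all 6 lists, and Gm15737 and Lrrc58 differed by 1 peak in all. Gm38655 was closest to Cebpd, with a difference of 1, Slc16a1 to Cebpa, with 2, and Kdm4a and Wdr43 to Cebpe, with 2 each. Among the genes searched Cebpb had no such near match: the closest, Dnajc11, differed by 9 peaks in all, with 14 GR, 11 Pol2, 14 H3K27ac, 18 H3K4me1, 6 H3K4me3 and 3 CTCF peaks. The sum was not scaled to the number of peaks, so the difference at Cebpb cannot be compared with those at members with fewer peaks.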

How the data were processed

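ChIP-seq peak lists for 6 antibodies were used, with 1 library each. Per the submitters' processing notes, the build was mm10 and the tools were MACS2 (version not named), Bowtie 1.0.0 and bcl2fastq 2.17.1.14. The roles of these tools, the peak threshold and the library depths were not given in the sources used here. Positions in bases are the deposited values of all 6 lists. For CTCF and H3K4me3 the authors also deposited summits, an integer score, a fold (ratio) over the control, a −log10 p-value and a −log10 q-value per peak. The other 4 deposited lists hold positions only, so width in bases was described in place of a strength.

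Peaks were counted in each locus where at least 1 base overlapped, with GENCODE start sites, beside the same count over 21938 protein-coding genes. Mitochondrial peaks (1 Pol2, 5 CTCF, 7 H3K4me3 and 8 GR) were left out. Distances run from the annotated 5′ end. Python 3.11.15, numpy 2.4.6, scipy 1.17.1 and matplotlib 3.10.9 were used, and the counting and motif steps were tested on simulated data. Intervals cover counting error only, since reads amplified by PCR without molecular identifiers are not independent.

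Members, lists and motifs were chosen with earlier results of these data known. The genes named are the members, genes with a start in a member locus that were nearest to its peaks, the 3 genes of each list with the most GR peaks and those with none, and up to 3 genes closest to each member in peak numbers. Other genes and the comparison of downstream with start peaks were chosen after their values were seen. The alternatives were other windows, midpoints, the widest 50% of peaks, peaks within 200 bases joined, nearest-start assignment, RefSeq starts, 50% coverage, whole peaks and 1 mismatch for motifs.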

Additional observations from a re-analysis of the deposited data

How the results depend on the processing

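No paired analysis was possible because there was 1 library per antibody and no test. Of 79 values over all loci or lists under other settings, 52 stayed within 1.5 times the value reported, and 27 moved. With loci of 25 kb, the 5 loci held 17 GR, 24 H3K27ac and 30 H3K4me1 peaks, and 3 GR peaks in the enhancer class. With loci of 100 kb they held 51 GR, 80 H3K27ac, 78 H3K4me1, 20 H3K4me3 and 7 CTCF peaks. The values with the main window were 28 GR, 25 Pol2, 40 H3K27ac, 51 H3K4me1, 10 H3K4me3 and 4 CTCF peaks. Among the widest 50% of each list were 15 Pol2, 24 H3K27ac, 31 H3K4me1 and 2 CTCF peaks. Joining peaks within 200 bases left 16 Pol2 and 25 H3K27ac peaks. Only peaks with a member as the nearest start numbered 11 GR, 7 Pol2, 17 H3K27ac, 20 H3K4me1 and 6 H3K4me3. The GRE was found in 4 of the 28 GR peaks over whole peaks and in 5 with 1 mismatch (5.99% and 20.5% of all GR peaks), and the C/EBP site in 2 and 17 (8.71% and 64.6%). Within 5 kb of a TSS, GR was found at 2 adipocyte, 1 granulocyte and 2 acute phase and liver targets, beside 47.3% of all genes. Of 240 values for single members, motifs or marks, 171 stayed within 1.5 times and 69 moved. Depth is unknown, so a missing peak, as at Cebpe, does not show that a factor or mark is absent, and numbers cannot be compared between antibodies as amounts.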
